A study of Homo sapiens with 6 samples.

Results

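The regions described here are the 110 autosomal stretches of open chromatin that collected the most sequencing reads in sorted human embryonic stem cells, out of 118556 regions in the deposited table. A region was included when its CPM (the reads in the region divided by the total count of the library over all regions, times 1000000) averaged 100 or more over all 6 samples. One region exceeded 100 mean CPM per kb of width and was set apart as dense, and the other 109 did not. Level and width therefore chose the regions and are given as a description. Because the average covers both populations, a region can enter through the population in which it is higher, and the difference between populations is not independent of the choice. The mean of both populations reached 100 CPM in 55 of the 110 regions, that of the mid population alone in 47 and that of the high population alone in 8. All samples came from the single human embryonic stem cell line WA09, kept under the same culture protocol, with no genetic change or agent named for these samples. Cells were sorted by surface antigens into a population labelled GCTM-2highCD9highEPCAMhigh (the high population) and a population labelled GCTM-2midCD9mid (the mid population, called low in the sample titles). The mid label names no EPCAM gate, so the populations may differ in more than the level of GCTM-2 and CD9. Each population had 3 replicates, and libraries were amplified for 9 PCR cycles.

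In FAST-ATAC the Tn5 transposase cuts accessible DNA and inserts sequencing adapters, so the number of reads in a region follows how open it is, how wide it is and how many genomic copies are collapsed onto it in the reference. Wide open stretches are typical of active promoters with CpG islands and of clustered enhancers. Satellite, ribosomal and other repeated DNA, which is common beside centromeres, can pile up reads at a few reference positions when the genome holds more copies than the assembly. No genome or annotation of hg19, the build of the deposited positions, was used here, so gene names, repeat classes, sequences and marker genes of the cells are not given.

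Total counts over all regions of the table ran from 15486251 to 29025274 per library. The largest library was mid replicate 1, and the smallest high replicate 2. The lowest count of any of the 110 regions in any library was 1046 reads, for which counting error alone is 3.09%.

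The dense region lay at chr20:26188468-26190828 of hg19 and was 2361 bp wide. It averaged 1376 CPM over the 6 samples, or 583 CPM per kb, which is 28.4 times the median density of the other 109 regions. Among the 110 regions, its level was 6.05 times that of the next highest and its density 5.96 times that of the next densest. It lay 24.3 kb from the edge of the widest stretch of chromosome 20 without any region, which ran for 3.37 Mb up to 29580764. The next closest of the 110 regions to such a stretch, on chromosome 17, was 1.76 Mb away.

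**Figure D1:**
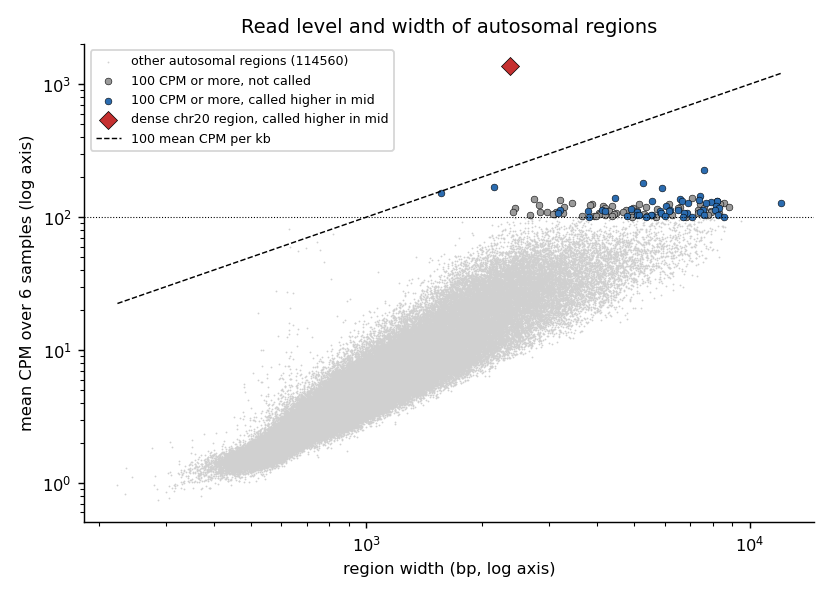
Mean CPM over the 6 samples against region width, both on log axes, for all autosomal regions (grey), the 109 other regions with 100 mean CPM or more (circles, blue where called higher in the mid population) and the dense region (diamond). The dashed line marks 100 mean CPM per kb and the dotted line 100 mean CPM: the dense region stands far above the dashed line, and the other regions form a band between 100.05 and 227 CPM.

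The dense region held 728, 764 and 647 CPM in high replicates 1, 2 and 3 and 1896, 2477 and 1744 CPM in mid replicates 1, 2 and 3. Every mid sample lay above every high sample. High samples averaged 713 ± 60.2 CPM (SD, n = 3), and mid samples averaged 2039 ± 387 CPM (SD, n = 3), which is 2.86 times as high. On the TMM-normalized scale the log2 ratio of the high to the mid population, called the log2 fold change throughout, was -1.59 with a standard error of 0.09 (edgeR quasi-likelihood test over all regions, adjusted p = 3.27e-20). Same-numbered samples differed by -1.53, -1.76 and -1.49 on the log2 scale. Per base of its width, the region held 5.31, 5.01 and 7.19 reads in the high libraries and 23.3, 24.2 and 19.5 reads in the mid libraries, after removal of duplicates. In the other 109 regions this value ran from 0.133 to 4.12 reads per base over all libraries.

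The regions on either side of the dense region within 50 kb held few reads. The one at chr20:26143493-26144083 averaged 1.60 CPM, the dense region having 862 times its level. Its counts were 13, 25 and 22 in the high libraries and 47, 71 and 44 in the mid libraries. The fitted difference was -1.08 on the log2 scale with a standard error of 0.32 (edgeR, adjusted p = 0.0155), which did not pass 0.01. The one at chr20:26213160-26213650 averaged 1.34 CPM. Its fitted difference was -1.04, with a standard error of 0.35 (edgeR, adjusted p = 0.0389). Both values pointed the same way as the dense region, but neither was called.

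The densest of the 110 regions after it were far lower in level. The region at chr2:133016087-133017651, 1565 bp wide, had 97.7 mean CPM per kb and so lay just outside the definition of dense. It held 124, 167 and 77.1 CPM in high replicates 1 to 3 and 116, 279 and 154 CPM in mid replicates 1 to 3. The populations overlapped, because mid replicate 1 lay below 2 of the high samples. It was called higher in the mid population, at -0.64 on the log2 scale with a standard error of 0.12 (edgeR, adjusted p = 1.64e-04), although the replicate 1 pair differed by -0.06 and the replicate 3 pair by -1.06. With no replicate block the adjusted p was 0.107, in DESeq2 it was 0.125, and without the replicate 2 pair it was 0.103, so the call depended on the fit.

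The region at chr17:41399304-41401455, 2152 bp wide, had 77.8 mean CPM per kb. It held 138, 147 and 112 CPM in the high samples and 209, 226 and 172 CPM in the mid samples, with no overlap. Its log2 fold change was -0.70 (standard error 0.11, adjusted p = 3.80e-06, edgeR), and the pairs differed by -0.74, -0.69 and -0.67. The fourth in density of the 110, chr3:167451571-167454301, was not called. It held 176, 147 and 124 CPM in the high samples and 128, 115 and 136 CPM in the mid samples, which overlapped, with a log2 fold change of 0.14 ± 0.11 (SE, edgeR, adjusted p = 0.443). With loess offsets, a scaling that centres regions of each level on 0, it was called toward the high population, at 0.53 (edgeR, adjusted p = 3.46e-04).

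**Figure D2:**
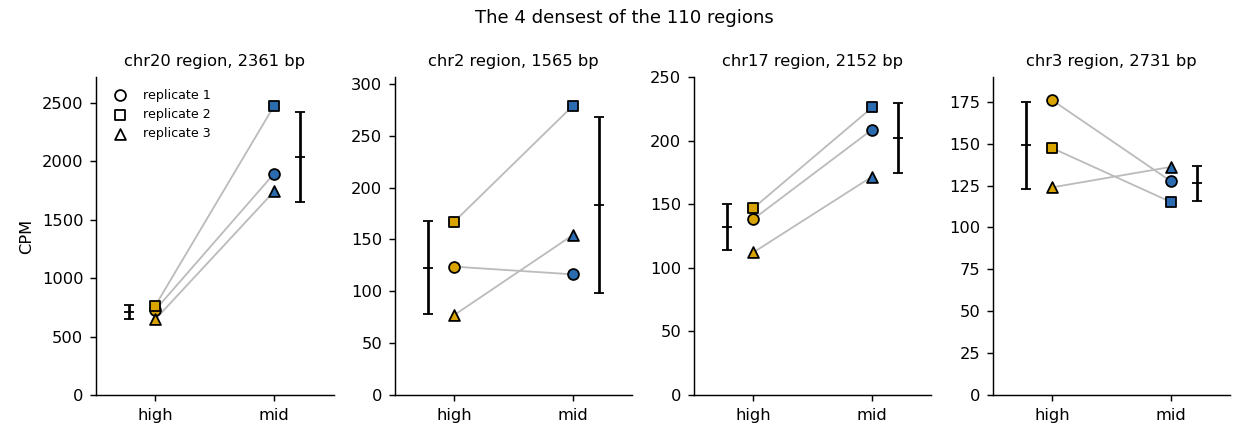
CPM (vertical axis, from 0 in each panel) of the 4 densest of the 110 regions in the high (yellow) and mid (blue) samples. Marker shape gives the replicate number, grey lines join same-numbered samples, and black bars give the mean and SD of 3 samples: the chr20 and chr17 regions do not overlap between populations, and the chr2 and chr3 regions do.

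A high density did not go with 1 direction of change. On the autosomes 13 regions exceeded 50 mean CPM per kb, of which 4 also reached 100 mean CPM. The other 9 were between 629 and 1777 bp wide. Of these, 3 were called higher in the high population and 5 higher in the mid population, against 2.32% and 3.77% of all regions. The populations overlapped in 2 of the 9, both called higher in the mid population. The region at chr18:55065417-55066045 had 129.6 mean CPM per kb but only 81.5 mean CPM, and was higher in the high population (log2 fold change 0.998, adjusted p = 7.43e-07, edgeR). Its same-numbered pairs differed unevenly, by 1.61, 1.07 and 0.31 on the log2 scale. All 3 regions called in that direction differed least in replicate 3. In contrast, chr12:38543582-38544244 had 55.2 mean CPM and a log2 fold change of -1.51 (adjusted p = 1.90e-12, edgeR). These 2 regions were picked out after their values were seen.

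Most of the 110 regions were wide. Their median width was 5369 bp (quartiles 4085.5 and 7083), against 879 bp for all regions, and 84 of them were 4000 bp or wider. The narrowest was the chr2 region of 1565 bp and the widest a region of 12080 bp at chr1:17017200-17029279. That widest region had 102, 112 and 121 CPM in the high samples and 144, 150.3 and 131 CPM in the mid samples, which did not overlap. In density, the 109 regions had a median of 20.5 mean CPM per kb (range 10.5 to 97.7), against 4.43 for all regions. Levels were crowded at the lower end, with a median of 112 mean CPM and 6 of the 110 regions above 150. At the threshold itself, the last 3 regions inside had 100.6, 100.2 and 100.05 mean CPM, and the first 3 outside had 99.9, 99.8 and 99.6 mean CPM. The inner 3 lay on chromosomes 17, 13 and 19 and the outer 3 on chromosomes 19, 19 and 5.

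The 110 regions, 0.0928% of all regions and 0.440% of their summed width, held a larger share of the reads in the mid population. The share was 1.28%, 1.23% and 1.14% of all counts in high replicates 1, 2 and 3 and 1.67%, 1.63% and 1.52% in mid replicates 1, 2 and 3. Every mid sample lay above every high sample, with means of 1.21% ± 0.0719 (SD, n = 3) and 1.61% ± 0.0759 (SD, n = 3). The same-numbered differences were -0.393, -0.404 and -0.388 percentage points. No test is given for sums over the 110 regions, since 47 of them reached the level in the mid population alone.

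Without the dense region, the other 109 still differed in the same direction. Their share was 1.14% ± 0.0672 (SD, n = 3) in high samples and 1.41% ± 0.0680 (SD, n = 3) in mid samples, 1.23 times as much. That of the dense region alone was 0.0713% ± 0.00602 (SD, n = 3) and 0.204% ± 0.0387 (SD, n = 3). Within each library, for every 100 reads in the other 109 regions the dense region had 6.05, 6.63 and 6.04 reads in the high samples and 12.8, 17.9 and 12.9 reads in the mid samples. This ratio does not depend on how libraries are scaled, and its values did not overlap between populations. No test is given for it either, since many of the other 109 regions reached the level in the mid population alone. The mean of this ratio was 2.33 times as high in the mid population.

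**Figure D3:**
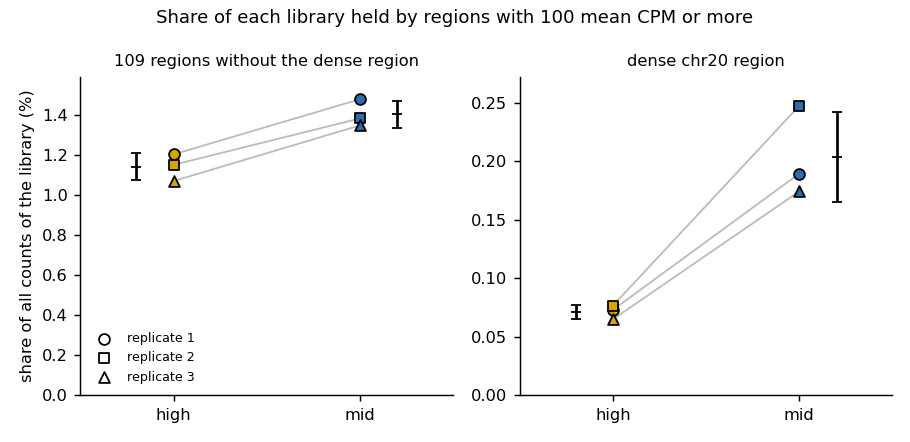
Share of all counts of each library (percent, axes from 0) held by the 109 regions without the dense region and by the dense region alone, in high (yellow) and mid (blue) samples. Grey lines join same-numbered samples, and black bars give the mean and SD of 3 samples: all 3 lines rise from high to mid in both panels.

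Over single regions, 51 of the 110 were called higher in the mid population and 0 higher in the high population, at an adjusted p under 0.01 in edgeR's quasi-likelihood test with replicate number as a block. Over all 118556 regions, 3.77% were called higher in the mid population and 2.32% in the other direction, 6.09% in either. At an unadjusted p under 0.05 in the same test, 1 of the 110 was higher in the high population, and DESeq2 likewise called 0 in that direction. The 110 regions had a median log2 fold change of -0.35, against 0.03 over all regions, and 91 lay below 0, against 46.5% of all regions. In TMM-normalized CPM, all mid samples lay above all high samples in 60 of the 110 regions and all high samples above all mid samples in 1, against 13.0% and 12.9% of all regions. All 3 same-numbered pairs were lower in the high population in 77 regions and higher in 3, against 22.4% and 25.3% of all regions.

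These counts are a description, since they depended on how a region reached the level. Of the 47 regions with a mean of 100 CPM in the mid population alone, 38 were called higher in the mid population, and all 47 had log2 fold changes below 0. Of the 55 regions with such a mean in both populations, 13 were called higher in the mid population (23.6%), 43 had log2 fold changes below 0 and the median was -0.19. Of the 8 that reached it in the high population alone, 0 were called.

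The share called higher in the mid population grew with level across the table. It was 0.847% of autosomal regions under 10 mean CPM, 9.49% of those from 10 to under 30, 28.2% of those from 30 to under 100, and 46.4% of the 110 regions. The share called higher in the high population was 2.05%, 3.58%, 2.05% and 0% in the same order. Regions with more reads also have more power to be called. Median log2 fold changes, which do not depend on a threshold, were 0.08, -0.10, -0.25 and -0.35 in the same order.

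The split between the directions depended on the scaling. With loess offsets fitted to the average level, which centre regions of each level on 0 by construction, 16 of the 110 regions were called toward the high population and 24 toward the mid population, against 3.17% and 2.73% of all regions. The dense region kept its direction and its call under these offsets, with a log2 fold change of -0.90. Without replicate 2 of both populations the mid count was 24, without high replicate 2 alone it was 33 and without mid replicate 2 alone it was 22. Over all regions the mid calls fell alike, from 4472 to 438, 839 and 432.

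**Figure D4:**
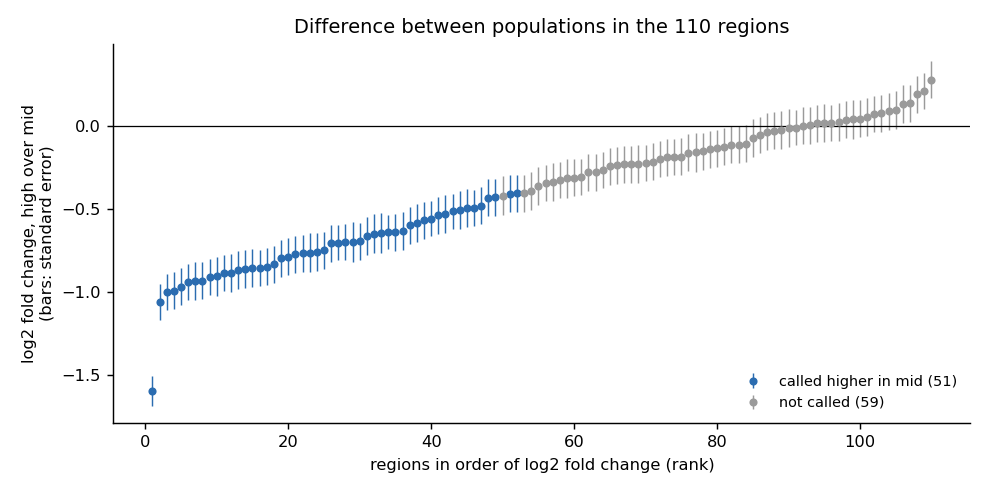
Log2 fold change of high over mid (vertical axis, TMM-normalized) of the 110 regions in rank order, with bars for the standard error, in blue where called higher in the mid population and in grey where not. The dense region stands apart at -1.59, the next is at -1.06, and the highest is at 0.28.

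Among the other 109 regions, the largest changes were toward the mid population, and 3 of the 5 largest lay on chromosome 19. All 5 reached a mean of 100 CPM in the mid population alone, so their separation is in part fixed by the choice. The region chr19:13259948-13267626, 7679 bp wide, had the largest change and the smallest p-value. It held 90.8, 83.1 and 86.4 CPM in the high samples and 169.9, 179 and 160.2 CPM in the mid samples. No sample of either population came near the other, and the log2 fold change was -1.06 (standard error 0.11, adjusted p = 2.02e-09, edgeR). The region chr19:7932822-7940196 held 97.7, 98.0 and 83.2 CPM in the high samples and 176, 182 and 165 CPM in the mid samples. Its log2 fold change was -0.997 (standard error 0.11, adjusted p = 7.48e-09, edgeR).

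The region chr19:54480249-54486838 varied little within populations, with SDs of 2.56 and 3.89 CPM. It held 99.3, 97.7 and 94.3 CPM in the high samples and 179, 174 and 172 CPM in the mid samples (log2 fold change -0.94, adjusted p = 2.16e-08, edgeR). On chromosome 9, chr9:131934692-131942905 held 86.8, 92.8 and 95.2 CPM in the high samples and 189, 169 and 156 CPM in the mid samples (log2 fold change -0.99, adjusted p = 1.53e-08, edgeR). The mid samples were more spread here, with an SD of 16.4 CPM, yet the populations did not overlap. On chromosome 17, chr17:7735807-7741371 held 76.8, 67.5 and 74.4 CPM in the high samples and 152, 126 and 124 CPM in the mid samples (log2 fold change -0.97, adjusted p = 3.06e-08, edgeR). All 5 of these regions were at least 5565 bp wide.

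The regions with the highest levels after the dense one were mostly called as well. The second highest of the 110, chr15:75742034-75749615, held 191, 192 and 172 CPM in the high samples and 279, 266 and 265 CPM in the mid samples, which did not overlap. It averaged 227 CPM over 7582 bp, with a log2 fold change of -0.64 ± 0.10 (SE, edgeR, adjusted p = 1.18e-05). Next came chr13:111363782-111369059, with 157, 164 and 141 CPM in the high samples and 219.95, 202 and 197 CPM in the mid samples (log2 fold change -0.51, adjusted p = 4.96e-04, edgeR). This region was the exception on its chromosome, where the other 4 of the 110 regions were not called, and with no replicate block it was not called either (edgeR, adjusted p = 0.0208).

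On chromosome 1, chr1:144530823-144536706 lay 1.91 Mb from the widest stretch without regions. It held 117, 132 and 145 CPM in the high samples and 194, 207 and 199 CPM in the mid samples (log2 fold change -0.70, adjusted p = 5.92e-06, edgeR). The region chr17:2298795-2306194 held 101, 105 and 110.5 CPM in the high samples and 192, 186 and 170.5 CPM in the mid samples (log2 fold change -0.88, adjusted p = 1.01e-07, edgeR). For chr11:62606173-62610618 the values were 99.8, 102 and 121 CPM in the high samples and 178, 165 and 164 CPM in the mid samples (log2 fold change -0.75, adjusted p = 3.25e-06, edgeR). These 3 regions also had no overlap between populations.

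Several of these calls depended on the fit. Of the 13 named regions called, 6 were lost without the replicate 2 pair and the same 6 with loess offsets, and 7 were still called in both. Besides the chr2 region, they were chr15:75742034-75749615 (edgeR, adjusted p = 0.0182 without the pair and 0.184 with loess offsets), chr13:111363782-111369059 (0.0664 and 0.597), chr17:41399304-41401455 (0.0185 and 0.0326), chr1:144530823-144536706 (0.0221 and 0.0385) and chr11:62606173-62610618 (0.0142 and 0.0112). With loess offsets the difference of chr13:111363782-111369059 was -0.084. In contrast, chr12:89742496-89749565 was close to 0 in difference, with 158, 141 and 132 CPM in the high samples and 145, 133 and 129.6 CPM in the mid samples. Its log2 fold change was -0.01 with a standard error of 0.11 (adjusted p = 0.964, edgeR). With loess offsets it was called toward the high population, at 0.39 (edgeR, adjusted p = 0.00437).

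The called regions were unevenly spread over chromosomes. Chromosome 19, which is known for its many genes, held 11 of the 110 regions but 2.70% of all autosomal regions, and its 11 were 3.55 per 1000 regions of that chromosome. All 11 were called higher in the mid population, with log2 fold changes from -1.06 to -0.80. Their high samples lay between 62.0 and 99.6 CPM and their mid samples between 116.75 and 182 CPM, so that all 11 reached the level through the mid population, and their separation is in part fixed by the choice. On chromosome 17, 6 of 6 were called higher in the mid population (log2 fold changes from -0.97 to -0.63), against 11.6% of its remaining regions, and on chromosome 16, 4 of 4 (from -0.79 to -0.64), against 8.76%. Chromosomes 20, 22 and 15 had 2 of 2, 1 of 1 and 2 of 2 called in that direction, against 8.65%, 13.96% and 3.47% of their remaining regions. On each of chromosomes 15, 16, 17, 20 and 22, too, at least 1 of these regions reached the level in the mid population alone. The remaining regions had lower levels, at which a smaller share was called in that direction across the table.

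On chromosome 4, 0 of 8 were called, with log2 fold changes from -0.28 to 0.21, where 0.498% of the remaining regions were called higher in the mid population. On chromosome 5 it was 0 of 9 (from -0.42 to 0.19), against 1.19%, and on chromosome 3 it was 1 of 8, against 0.666%. With so few regions these counts say little beside the shares of their chromosomes. Chromosome 21 had 0 of the 110 regions. Regions of a chromosome also moved together outside the 110. The median log2 fold change of the remaining regions was -0.47 on chromosome 19, where 30.7% of them were called higher in the mid population, -0.26 on chromosome 17 and 0.24 on chromosome 4. Against this median of their own chromosome, 104 of the 110 regions were lower in the high population, by a median of 0.41 on the log2 scale (-0.41). On each of the 19 autosomes with 2 or more of the 110, their median lay below that of the remaining regions.

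**Figure D5:**
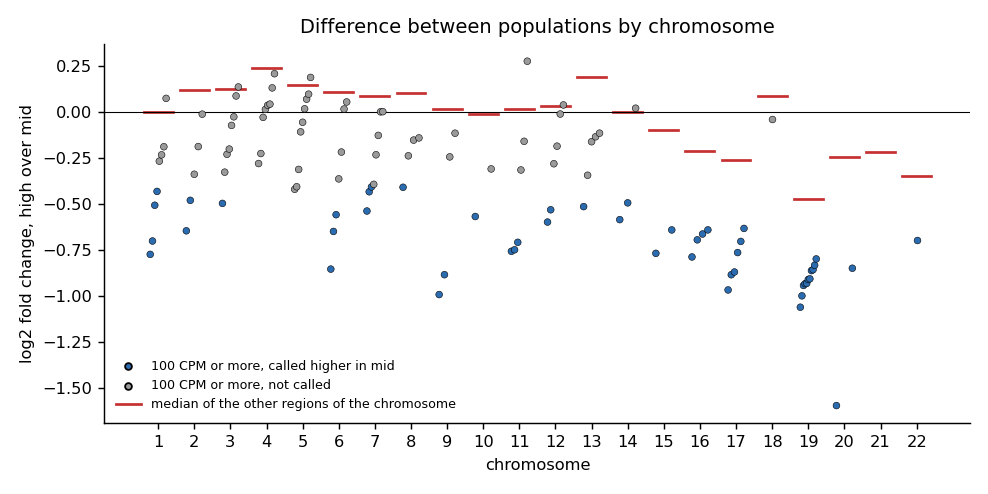
Log2 fold change of high over mid (vertical axis) of the 110 regions by chromosome, in blue where called higher in the mid population and in grey where not, with the median of the other regions of each chromosome as a red line. All 11 points of chromosome 19 are blue and lie below its red line at -0.47, and the 8 points of chromosome 4 are grey.

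Some of the 110 regions lay close together. The pair at chr16:3053082-3061379 and chr16:3069604-3075161 was 8.22 kb apart, with log2 fold changes of -0.66 and -0.69. The pair at chr19:50140993-50146364 and chr19:50178444-50184593 was 32.1 kb apart, with log2 fold changes of -0.86 and -0.80. Both pairs were called higher in the mid population in both members, and such close regions are not independent of each other. No other neighbouring pair among the 110 was within 50 kb.

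Width went with the difference. Of the 84 regions of 4000 bp or wider, 44 were called higher in the mid population (52.4%), with a median log2 fold change of -0.42. Of the 26 narrower ones it was 7, including the dense region, with a median of -0.16. Over the 109 regions without the dense one, Spearman's rho between width and log2 fold change was -0.39, and between mean CPM and log2 fold change -0.08. These are descriptions across regions that share the same 6 libraries. Of the 1679 autosomal regions of 4000 bp or wider that stayed under 100 mean CPM, 40.6% were called higher in the mid population and their median log2 fold change was -0.38. Whether these shares differ was not tested.

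Of the 59 regions not called, 40 had a log2 fold change below 0 and 19 above it. The highest value, picked out after the values were seen, was at chr11:105946951-105949358, a region of 2408 bp with 45.6 mean CPM per kb. It held 140.2, 122 and 109.8 CPM in the high samples and 94.4, 90.8 and 101 CPM in the mid samples, and was the single region in which all high samples lay above all mid samples. Its log2 fold change was 0.28 (standard error 0.11), which did not pass the threshold (adjusted p = 0.0898, edgeR). The other values above 0.15 were 0.21 at chr4:134066878-134075242 and 0.19 at chr5:108082608-108085800, with adjusted p-values of 0.207 and 0.267 from the same test.

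In these regions the high replicates themselves were spread. At chr5:108082608-108085800 the high samples held 175, 142 and 124 CPM, and at chr3:75483066-75485888 they held 159.9, 129 and 92.9 CPM. The mid samples of the latter were 121, 114 and 121.5 CPM, so that the range of the high samples contained all of them. On the TMM-normalized scale, high replicate 1 lay above high replicate 3 in 51 of the 59 regions not called and in 22 of the 51 called, against 59418 of 118556 over all regions. The median log2 difference between these 2 samples was 0.34 in the regions not called and -0.02 in those called. The part of this difference between high replicates in the comparison was not tested.

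Next to the 109 other regions, the nearest region on either side within 50 kb that was not itself one of the 110 gave 204 neighbours with a median level of 6.32 CPM. Beside regions called higher in the mid population, 30 of 94 neighbours were called in the same direction (31.9%) and 0 in the other, against 3.77% and 2.32% of all regions. Their median log2 fold change was -0.40 and their median level 14.3 CPM. Beside regions not called, 1 of 110 neighbours was called higher in the mid population and 2 higher in the high population. Their median log2 fold change was 0.17 and their median level 4.12 CPM, so the 2 sets of neighbours also differed in level. These neighbours were chosen by position among regions under 100 mean CPM, and they lie on the same chromosomes and in the same libraries.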

How the data were processed

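FAST-ATAC counts of 6 samples were used. Per the study's methods, the authors trimmed the reads (trimmomatic) and aligned them to hg19 (bwa, given as version 0.7.15 in the submitters' processing notes). Duplicate reads were dropped and the rest moved to where Tn5 cut. Open regions came from MACS run on the replicates of a population together, and not on single replicates. A union over populations, less blacklisted sequence, was then counted with bedtools. The deposited table holds these counts, not normalized. The methods name default bwa settings and no filter on mapping quality, so reads with several possible positions may be among the counts. Region starts are 1 higher than deposited, the table being read as counting from 0.

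CPM was the count divided by the total of the library over all regions of the table, including those on sex chromosomes. The quasi-likelihood test of edgeR 4.0.16 (R 4.3.3) was run on all 118556 regions without a filter, after TMM normalization, and Benjamini-Hochberg adjusted p-values under 0.01 were called, with replicate number as a block, since the study's model held a batch term. Same-numbered samples deviated together from their group means (r from 0.19 to 0.30 across regions, against -0.26 to 0.06 for other pairs); the pairing rests on the numbers in the sample titles. DESeq2 1.42.0 and limma 3.58.1 (loess, span 0.3) served as alternatives, and scipy 1.17.1 for Spearman's rho. In simulated data of 118556 regions in which 200 differed by 1 on the log2 scale, the test recovered 100, with 0 false calls. The 200 were drawn from all regions, whose median was 4.01 mean CPM, against 112 for the 110 regions. They went equally in both directions, and no replicate effect or shift with level was simulated. The recovery therefore does not describe the 110 regions, and the false calls do not address scaling that varies with level.

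Named regions were the dense region, the 10 others of highest level, and, among others called with all pairs changed alike, the 5 of largest change and the 1 of smallest p-value per direction. The regions and rules were chosen with earlier results of these data known. The study calls its samples biological replicates, all of 1 line, so p-values do not extend to other lines.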

Additional observations from a re-analysis of the deposited data

Results flagged for a closer look

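The region at chrY:10020343-10028507 met the same level, with a mean of 311.8 CPM over 8165 bp, but lay outside the autosomes and so outside the 110 regions. It held 4166 to 4375 reads in the high libraries and 9025 to 12212 in the mid libraries, above the 3 counts that a value of 0 allows. It was called higher in the mid population (log2 fold change -0.876, adjusted p = 4.59e-08, edgeR). Whether its reads came from chromosome Y itself was not tested.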

How the results depend on the processing

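With no replicate block, 0 of the 110 regions were called higher in the high population and 35 higher in the mid population, against 0 and 51 with it, while calls over all regions fell from 2747 and 4472 to 280 and 1312. With loess offsets on average log2 CPM the counts were 16 and 24 and the median log2 fold change of the 110 regions was 0.0014, as the construction of these offsets implies. Scaling each library to its reads in the other 109 regions, an alternative chosen after seeing the data, gave 25 and 27, beside 29505 and 685 over all regions, with a median of 0.038 over the 110 regions and 0.42 over all regions, against 0.03 over all regions in the fit described. Library totals only moved the median of all regions to 0.12. A threshold of 50 mean CPM kept 1990 regions, with 18 and 743 called, and a threshold of 200 kept 2, both called higher in the mid population. Leaving out a same-numbered pair or, added after seeing the data, a single sample gave 0 to 1 calls toward the high population, 22 to 56 toward the mid population and medians from -0.41 to -0.31. With scaling on the 109 regions chr3:167451571-167454301 was called toward the high population, at 0.53 (edgeR, adjusted p = 6.9e-05). For chr12:89742496-89749565, which was not called, but was toward the high population with loess offsets (edgeR, adjusted p = 0.00437) and with scaling on the 109 regions (0.00149), the log2 fold change turned to 0.081 with library totals only, 0.39 with loess offsets, 0.38 with scaling on the 109 regions and -0.027 to 0.0013 over the pairs left out. The share of counts held by the 110 regions was recomputed with other thresholds of mean CPM and over autosomes only. It was also recomputed without the region with most reads and without each replicate pair. In all of these it stayed lower in the high population, by 0.391 to 0.399 percentage points without a replicate pair (-0.391 to -0.399). The other scalings were not applied to this share, and its direction is in part fixed by the choice of regions. No region called higher in the mid population was called toward the high population in any fit listed here. Total counts only, size factors by RLE, upper quartile scaling, TMM without the 110 regions, the filter on low counts, the likelihood ratio test, DESeq2, replicate 1 set apart as a batch and a threshold of 0.05 kept the mid count within 1.5 times and the high count at 0. Counting error limits little here, since the lowest count was 1046 reads. Total counts differed between the populations, at 17220035, 15486251 and 26225539 in high replicates 1 to 3. In mid replicates 1 to 3 they were 29025274, 23091028 and 26338105. The part of this difference in depth was not tested.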
